A study of Capra hircus with 4 samples.

Results

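CD74, PSMB8, PSMB9, TAP1 and CTSH are 5 genes of antigen processing and presentation. They were found by their symbols in the deposited feature list, where they are 5 of 27137 genes and each has 1 row. Their UMI counts (unique molecular identifiers, each standing for 1 captured transcript) were followed across the cell classes of goat pancreas.

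Single-cell RNA sequencing was performed on pancreas of 4 female Liuyang black goats, which the labels call twins. They were 10 days old (n = 2) or 6 months old (n = 2), and the labels name no genotype and no treatment. Tissue was digested with collagenase IV, dispase and DNase I, red and dead cells were removed, and 3' version 3 libraries (10x Genomics) were made for a target of 8000 cells. The counts carry 4 library numbers that no label ties to an animal or an age, so the ages were not compared. All comparisons set cell classes against each other inside each library, and no p-value is given for a class difference, since libraries of unknown animal and age were not treated as replicates.

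Cells show fragments of their proteins on major histocompatibility complex (MHC) molecules, by a class I route and a class II route. In the class I route, proteins of the cell's own cytosol are cut by the proteasome. PSMB8 and PSMB9 are catalytic subunits of the immunoproteasome, the form that interferon induces and that immune cells carry constitutively, and they replace PSMB5 and PSMB6 of the standard particle. TAP1 is one subunit of the transporter that moves the resulting peptides into the endoplasmic reticulum, with TAP2 as the other. In the class II route, used by dendritic cells, macrophages and B cells, CD74 (the invariant chain) escorts class II molecules to endosomes and blocks their groove until it is digested. CTSH is a lysosomal cysteine protease with aminopeptidase activity, and it is not restricted to the presentation routes.

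The 4 libraries held 2842 to 3998 called cells (13247 in all), with a median of 6188 to 8932 UMIs per cell. Cells were clustered without the genes of the presentation lists and those between BRD2 and GCLC, the stretch that holds PSMB9, and named from marker genes. Other genes that run with CD74, among them LOC102189356 and LOC106503915, were not left out, so the groups are not independent of its level. Cells were set aside where their sub-cluster carried the markers of another class (1506) or their cluster was left without a class name (151). When clustering was repeated without the genes most like the 5, the unnamed cluster of 150 cells was led by genes of dividing cells. It raised 10 endocrine markers. The named classes were stellate (4807 cells), endocrine (2756), acinar (2302), immune (1064), ductal (325), endothelial (273) and mesothelial (63, all in library 4), each called "-like" below in the sense of its markers. Of the immune-like cells, 735 were in library 4 and 26 in library 2. Over the 12 pan-immune markers the summed level was 5229 to 8661 counts per 1000000 UMIs (CPM) in immune-like cells, and no other named class among endothelial, ductal, stellate, acinar and endocrine passed 382.2 CPM. The names are rebuilt here and are coarser than the cells. The neutrophil-like group holds a sub-cluster led by PGLYRP1 and LTF and others led by NR1H3 or by CLEC4D and VCAN, and the B/plasma-like group is led by plasma cell genes in library 1 and by B cell genes in library 4. Neutrophil markers summed to 7975 and 10048 CPM in neutrophil-like cells of libraries 1 and 4, and macrophage markers to 3105 and 3772. Whether that group holds monocytes was not tested. Among the 13247 cells, 17 barcode sequences occurred in more than 1 library. Levels are sums of UMIs per class and library divided by all UMIs of those cells, given only for classes with at least 10 cells in the library.

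CD74 was highest in dendritic-like cells. Its level there was 19800 CPM in library 1, 14354 in library 2 and 18005 in library 4. Macrophage-like cells followed with 12027, 7370, 3295 and 13219 CPM in libraries 1 to 4, so that the lowest dendritic-like value lay above the highest macrophage-like one. After every cell was thinned to 3000 UMIs, 100% of dendritic-like cells had a CD74 UMI in each of these libraries, against 65.85 to 93.28% of macrophage-like cells. Beta-like cells, which should lack the gene, had 1.04 to 2.30% by the same measure. Unthinned, the shares were 100%, 65.85 to 94.12% and 3.82 to 12.84%. Median depth was 7251 to 10299 UMIs in dendritic-like, 5404 to 6960 in macrophage-like and 7235 to 18033 in beta-like cells.

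Below these came B/plasma-like cells at 487.0 CPM in library 1 and 6063 in library 4, and neutrophil-like cells at 3204 and 2378 CPM in the same libraries. These ranges overlap each other, and the B/plasma-like range overlaps that of macrophage-like cells. T/NK-like cells stood lowest among the immune groups, at 105.7 CPM in library 1 and 86.03 in library 4. Barcodes that held 10 to 100 UMIs, a measure of RNA free in the suspension, had CD74 at 336.6, 75.56, 35.12 and 338.6 CPM in libraries 1 to 4. The T/NK-like level lay below the free RNA level of its own library in both. Stellate-like cells of libraries 1 and 4 had 7.68 and 10.68 CPM under the same free RNA. The part of free RNA in the T/NK-like counts was not tested, so their share of cells with a UMI is not read as expression here. Outside the immune cells, the blood vessel part of the endothelium had the highest median. Of the classes plotted, alpha-like endocrine cells came next by median, at 33.26, 53.27 and 78.07 CPM in libraries 2, 3 and 4. Ductal-like, mesothelial-like and lymphatic endothelial-like values overlap this range. Stellate-like, acinar-like and beta-like cells were at 1.48 to 13.20 CPM in all 4 libraries.

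**Figure D1:**
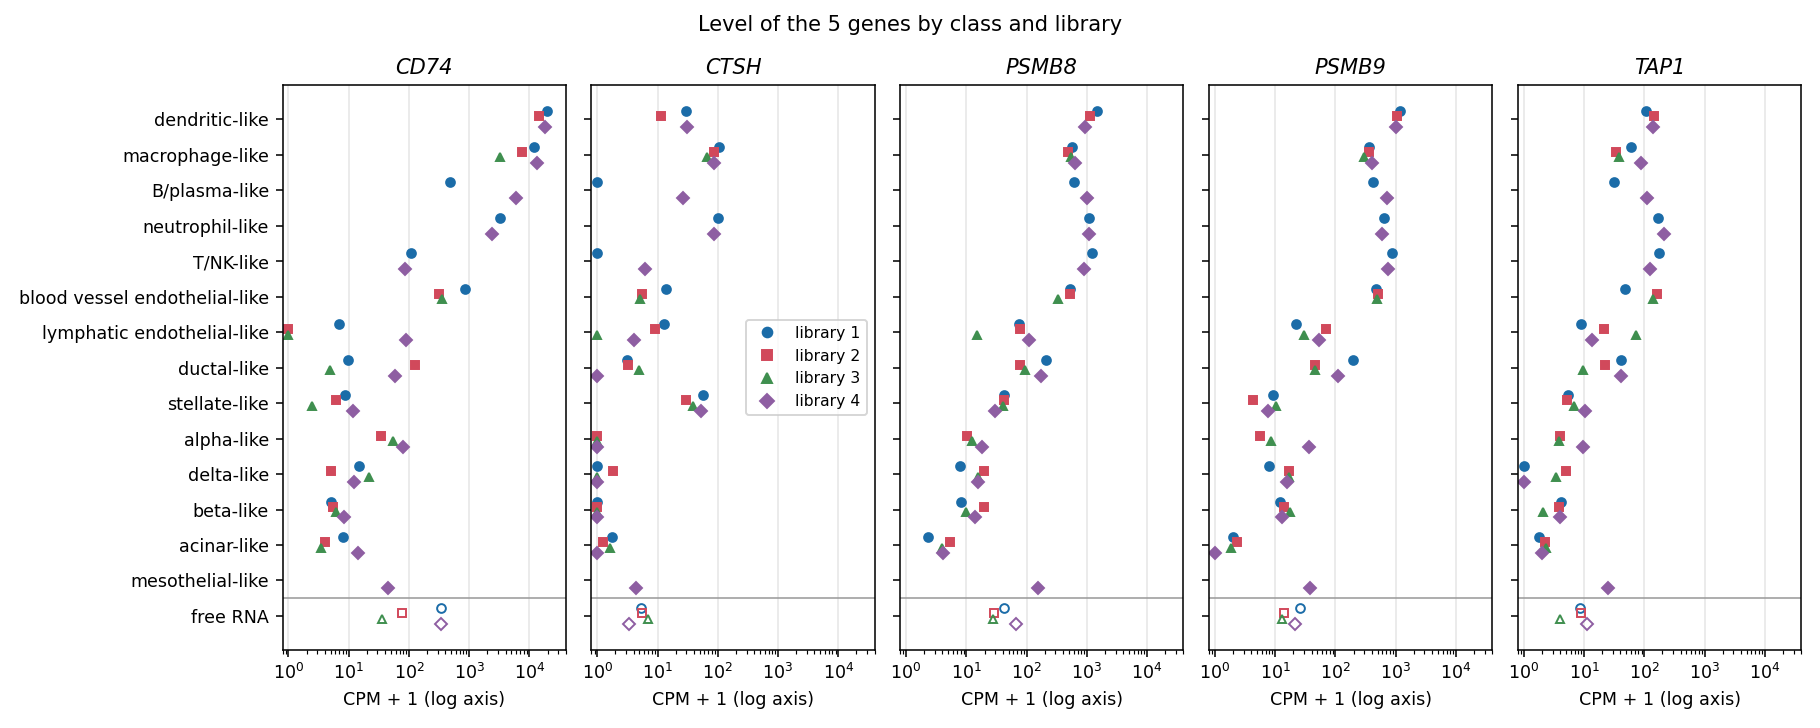
Level of the 5 genes by cell class. Each point is the summed UMIs of 1 class in 1 library as CPM on a log axis of CPM + 1, with free RNA as open points; dendritic-like cells sit highest for CD74 and PSMB9, and CTSH is the gene whose stellate-like points, 28.82 to 55.81 CPM, stand close to the macrophage-like ones at 64.75 to 103.2 CPM.

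A gene was called higher or lower between a pair of classes when its ratio of (CPM + 1) was at least 2-fold in the same direction in every library with 10 cells of each, and it was measured when it had at least 10 UMIs over both classes in each such library. Ratios are given as log2. Against neutrophil-like cells, macrophage-like cells had higher CD74, by 1.91 in library 1 and 2.47 in library 4, and lower TAP1, by -1.50 and -1.28. PSMB8, PSMB9 and CTSH were not called. Over all 7148 genes measured, 11.8% were called higher and 3.67% lower, with a median ratio of 0.24. TAP1 was not called when the clustering was repeated with cells of at least 1000 UMIs (median ratio -0.74) or without the genes most like the 5 (-0.88). CD74 was not called when the 5% of cells with the highest doublet scores were removed (median 2.04). Only 11 neutrophil-like cells stood behind the library 1 values.

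Against T/NK-like cells, macrophage-like cells had higher CD74 in libraries 1 and 4, by 6.82 and 7.25, and higher CTSH, by 6.70 and 3.77. CTSH had 74 and 146 UMIs in macrophage-like cells and 0 and 3 in T/NK-like cells, so the ratio in library 1 was at least 5.53-fold (a floor of 3 counts per library) and in library 4 it was 16.0-fold (95% counting interval 5.37 to 78.6). The proteasome subunits and TAP1 were not called. Over all 7545 genes measured 19.8% were higher and 5.59% lower. When the ratios were centred on their median of 0.27, the share of higher among all calls moved from 78.0 to 66.8% and PSMB9 became a lower call (median -1.31).

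In B/plasma-like against T/NK-like cells, CD74 was the 1 gene of the 5 called higher, by 2.19 in library 1 and 6.12 in library 4, where 2.21% of 3751 genes were called higher and 11.4% lower. Centring on the median of -0.56 moved the share of higher calls from 16.3 to 34.8%. The 2 libraries compare different cells here. In library 1, 15 of the 21 B/plasma-like cells lay in the plasma-like sub-cluster, and in library 4 all 46 lay in the B-like one. CD74 in that plasma-like sub-cluster of library 1 was 114.7 CPM, against 487.0 in the whole group and 105.7 in T/NK-like cells. The library 1 ratio therefore rested mainly on the few cells outside the plasma-like sub-cluster and is not a plasma cell excess. CTSH was not measured.

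Dendritic-like cells were compared with macrophage-like cells after their levels had been seen. PSMB9 was called higher, by 1.70, 1.54 and 1.36 in libraries 1, 2 and 4, against 1.96% of 2701 genes called higher and 11.5% lower. This call was lost when the genes most like the 5 were left out of clustering (median 1.46). CD74 was not called in spite of its separate ranges, and without library 4 PSMB8 was called higher as well (median 1.27). Without library 2, or with the 5% highest doublet scores removed, CTSH was measured and called lower.

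**Figure D2:**
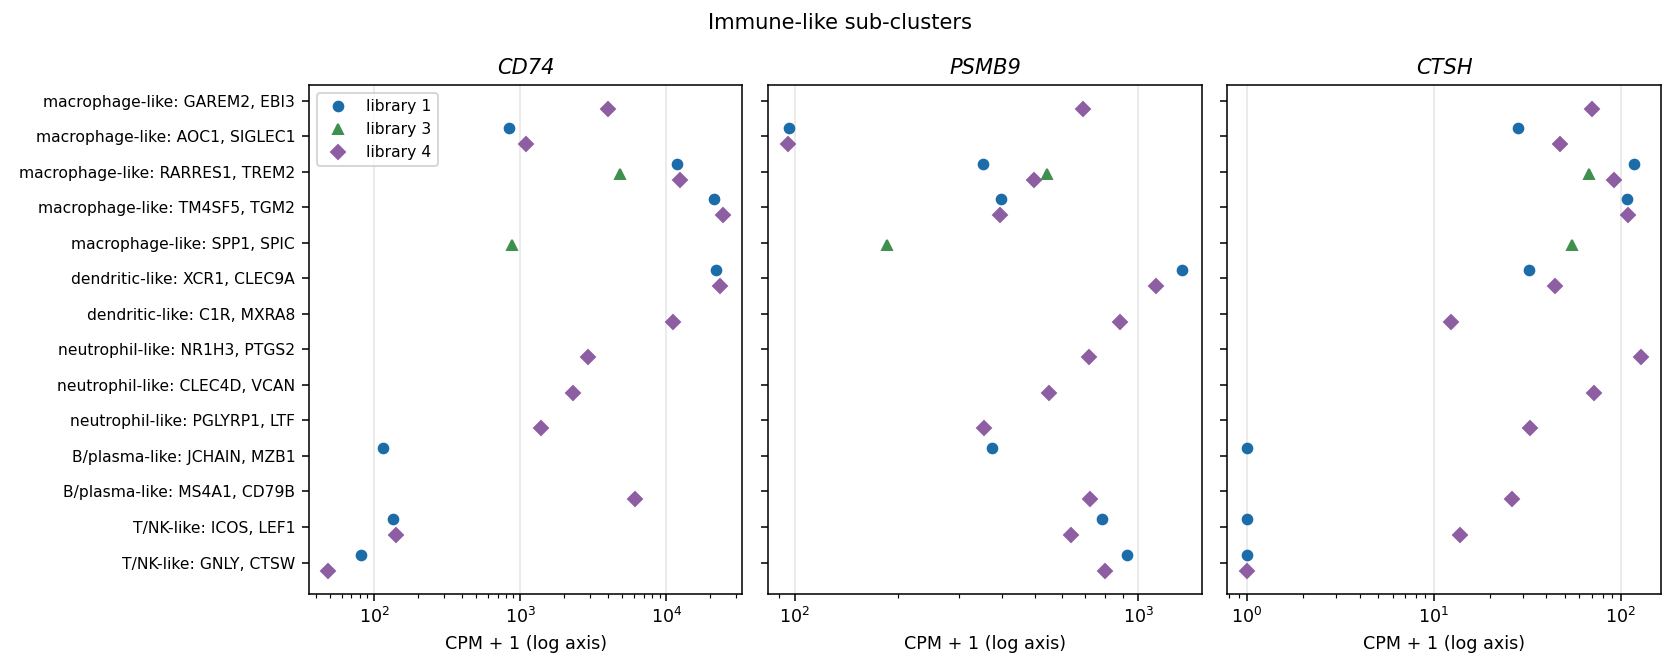
Level of the genes in the sub-clusters of immune-like cells, on a log axis of CPM + 1, each named by a pair of its leading genes. Each point is 1 sub-cluster in 1 library with at least 10 cells, and the macrophage-like sub-clusters spread from 833.2 to 24325 CPM for CD74, across the range of the neutrophil-like ones.

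The macrophage-like group varied widely in CD74, over sub-clusters formed while genes that run with CD74 were not left out. The sub-cluster with TM4SF5 and ADAMDEC1 among its leading genes had 21074 CPM in library 1 and 24325 in library 4. This was near the dendritic-like sub-cluster led by XCR1 and CLEC9A at 21892 and 23276. The name of those cells turns on the clustering: without the genes most like the 5, a sub-cluster of 57 cells with TM4SF5, ADAMDEC1 and FLT3 among its leading genes was named dendritic-like, and another of 65 cells with TM4SF5 and TGM2 stayed macrophage-like. The dendritic-like group was not uniform either, as its sub-cluster led by C1R and MXRA8 had 11134 CPM in library 4, below the macrophage-like group value of 13219. The sub-cluster with TREM2, a lipid-sensing receptor of macrophages, among its leading genes had 11919, 4813 and 12493 CPM in libraries 1, 3 and 4. The sub-cluster with EBI3 and OLR1 among its leading genes had 4006 CPM in library 4.

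At the low end, the sub-cluster with SIGLEC1 and CD209, receptors of tissue-resident macrophages, among its leading genes had 833.2 and 1092 CPM. The one led by SPP1 and SPIC had 882.4 CPM in library 3. The neutrophil-like sub-clusters, at 1387 to 2902 CPM in library 4, lay inside this range. The group values of macrophage-like and neutrophil-like cells are therefore sums over sub-clusters that overlap. PSMB9 followed a different order, at 94.61 CPM in the SIGLEC1 sub-cluster of library 4 and 689.6 in the EBI3 one. Among lymphoid cells, CD74 was 114.7 CPM in library 1 in the sub-cluster with JCHAIN and MZB1 among its leading genes, and 6063 in library 4 in the one led by MS4A1 and CD79B.

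The class I genes had another order over the immune groups. PSMB8 was 1200 and 893.6 CPM in T/NK-like cells, 1082 and 1070 in neutrophil-like and 615.6 and 1013 in B/plasma-like cells of libraries 1 and 4. It was 1443, 1104 and 944.2 CPM in dendritic-like cells of libraries 1, 2 and 4. These groups overlap. Macrophage-like cells had 575.7, 476.9, 545.2 and 636.2 CPM, below all values of the dendritic-like, neutrophil-like and T/NK-like cells.

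PSMB9 was 1174, 1043 and 1018 CPM in dendritic-like cells, above all other groups. T/NK-like cells had 858.2 and 730.3 CPM and neutrophil-like cells 640.9 and 580.1, with no overlap between them, while B/plasma-like cells spanned 418.6 to 723.9. Macrophage-like cells were lowest of the immune groups at 296.5 to 397.0 CPM and did not reach the blood vessel endothelial-like cells.

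TAP1 was 170.9 and 208.8 CPM in neutrophil-like and 174.1 and 121.1 in T/NK-like cells, and 105.8 to 143.1 in dendritic-like cells. Macrophage-like cells had 59.94, 32.51, 37.49 and 85.52 CPM. Thus T/NK-like cells, lowest of the immune groups in CD74, were among the highest in the 3 class I genes.

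The share of each inducible subunit in the sum of its UMIs and those of its standard counterpart sets the classes side by side without the total. By median, macrophage-like cells were again lowest of the immune groups for PSMB8 and PSMB9, but not for PSMB10. The PSMB8 share, over PSMB8 and PSMB5, had a median of 97.0% in T/NK-like, 96.6% in neutrophil-like, 94.0% in dendritic-like, 93.0% in B/plasma-like and 89.3% in macrophage-like cells. It was 78.6% in blood vessel endothelial-like cells (74.77 to 83.67%) and 35.1% in lymphatic endothelial-like cells (8.33 to 53.03%). Ductal-like cells had 47.7% (30.71 to 63.83%), stellate-like 24.5%, endocrine-like 7.94% and acinar-like cells 5.07%.

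The PSMB9 share, over PSMB9 and PSMB6, had a median of 80.5% in dendritic-like, 75.1% in T/NK-like, 74.9% in neutrophil-like, 70.1% in B/plasma-like and 65.2% in macrophage-like cells. It was 65.9% in blood vessel and 15.3% in lymphatic endothelial-like cells, 19.1% in ductal-like, 3.39% in stellate-like, 4.82% in endocrine-like and 0.84% in acinar-like cells. PSMB10, the inducible subunit that replaces PSMB7, ran differently. Its share was 75.8% in macrophage-like cells, close to T/NK-like cells at 76.3% and above B/plasma-like cells at 71.1%. It was 51.9% in endocrine-like and 48.2% in stellate-like cells, close to lymphatic endothelial-like cells at 52.4%, and 13.6% in acinar-like cells. Such a share depends on how well the 3' end of each gene is captured, so it is compared between classes and not between subunits.

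**Figure D3:**
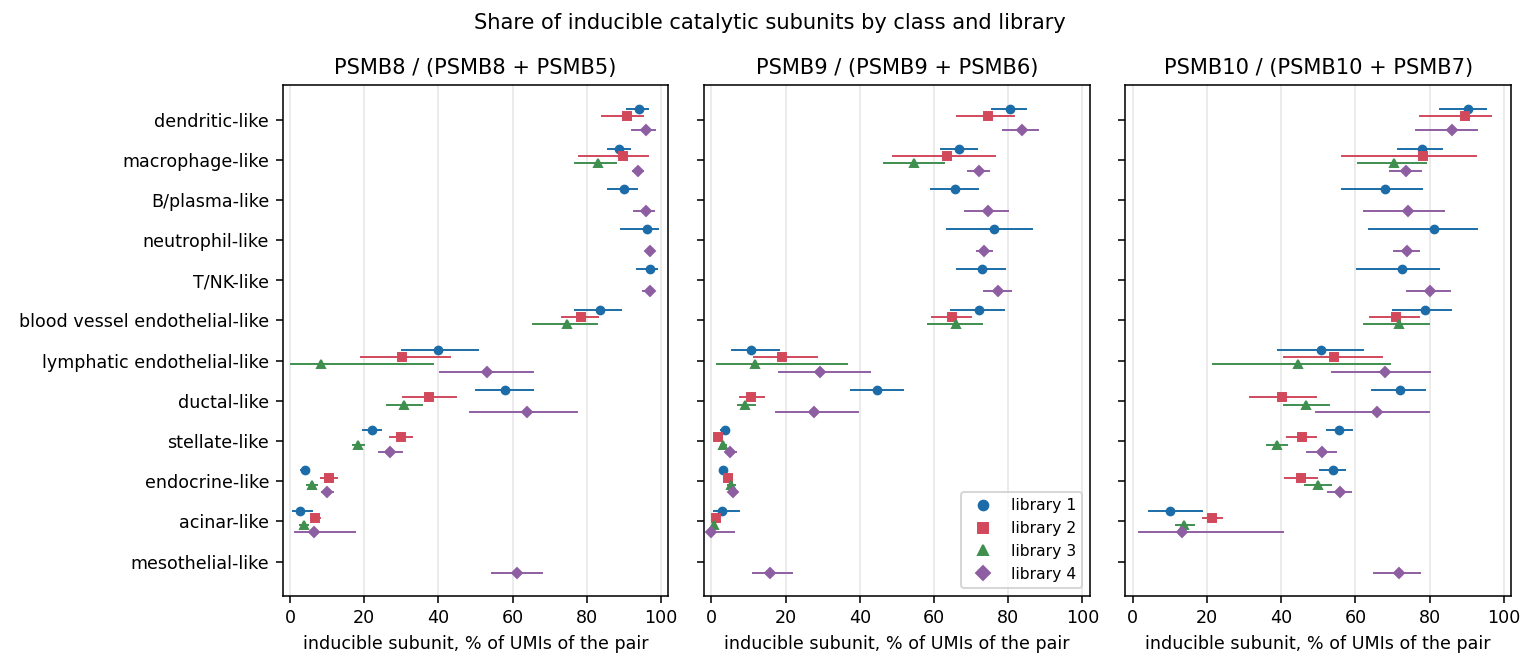
Share of PSMB8, PSMB9 and PSMB10 in the UMIs of each with its standard counterpart, by cell class. Each point is 1 library in percent with its exact 95% binomial interval; PSMB8 and PSMB9 are low in stellate-like, endocrine-like and acinar-like cells, whereas PSMB10 has medians of 48.2 and 51.9% in the first and second of these.

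Endothelial-like cells had higher CD74, PSMB8, PSMB9 and TAP1 than stellate-like cells, the collagen-producing mesenchyme of the pancreas, and lower CTSH. Over 11383 genes measured, 8.08% were called higher and 7.29% lower, with a median ratio of 0.24. The log2 ratios in libraries 1 to 4 were 5.00, 5.02, 6.79 and 3.97 for CD74, 2.36, 3.14, 2.69 and 2.22 for PSMB8, and 4.19, 6.36, 5.19 and 3.11 for PSMB9. The endothelial-like level of CD74 was 276.1, 197.4, 272.6 and 181.5 CPM, below the free RNA level of the same library in libraries 1 and 4 and above it in libraries 2 and 3. TAP1 had 1.96, 4.44, 4.19 and 1.16, and its call was lost when the ratios were centred (median 2.90), with a pseudocount of 10 CPM (2.06) or with cells of at least 1000 UMIs (3.09). CTSH had -2.13, -2.13, -3.19 and -3.82. In libraries 3 and 4, where endothelial-like cells held 1 CTSH UMI each, this was 11.7-fold (counting interval 2.08 to 462) and 18.8-fold (3.36 to 746). The class joins 152 lymphatic and 121 blood vessel cells. Lymphatic CD74 was 5.83, 0 and 0 CPM in libraries 1 to 3, below the stellate-like 7.68, 5.14 and 1.48. The CD74 excess there thus lay in the blood vessel part. Lymphatic PSMB9 and TAP1 lay above the stellate-like level in all 4 libraries, and PSMB8 in all but library 3 (14.26 against 39.98 CPM).

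**Figure D4:**
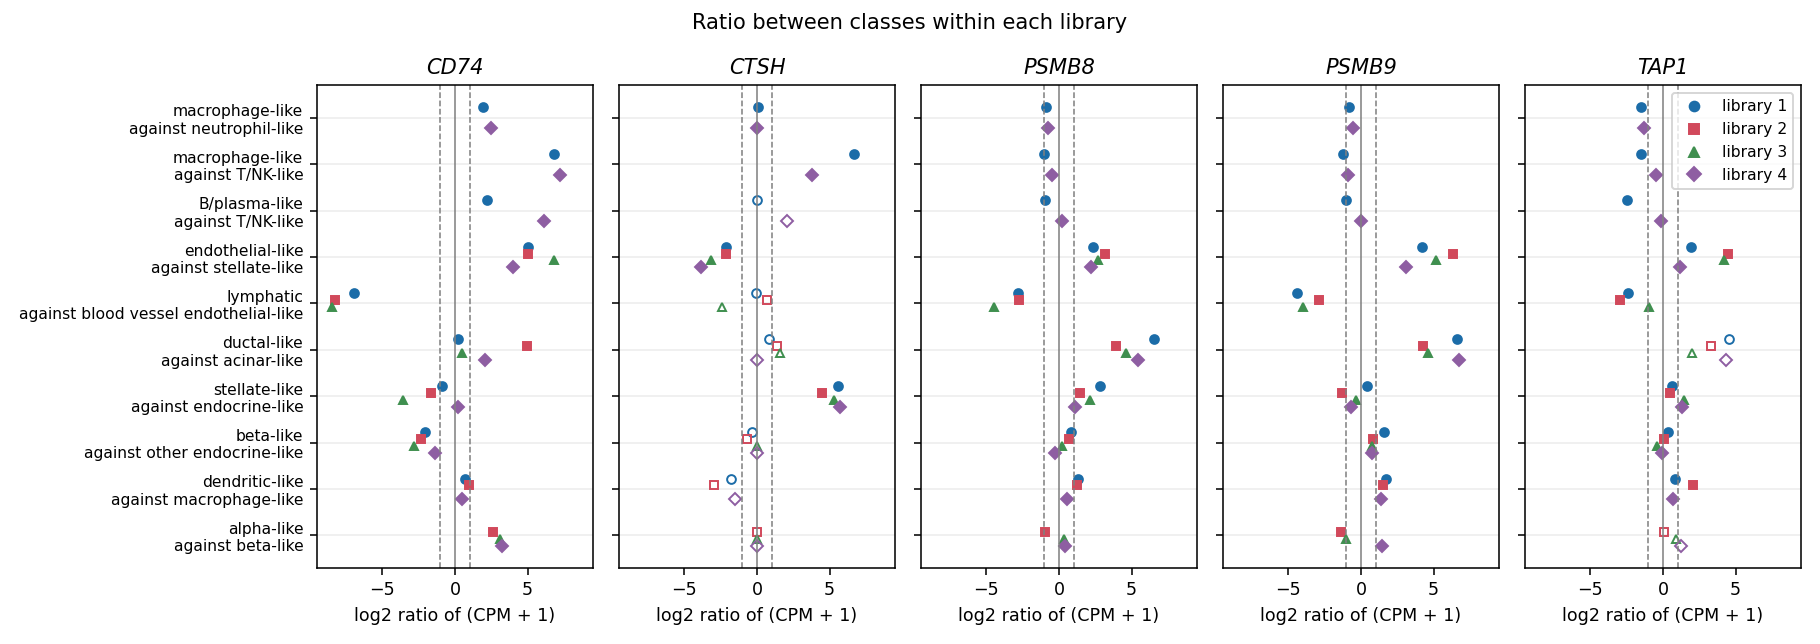
Log2 ratio of (CPM + 1) between classes for the 5 genes. Each point is 1 library, open where the gene was not measured in that comparison; dashed lines mark the 2-fold limits, and the endothelial-like against stellate-like points lie above the upper limit for CD74, PSMB8, PSMB9 and TAP1 and below the lower one for CTSH.

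Within the endothelium the genes divided between blood and lymphatic vessels. CD74 was 858.6, 309.4 and 352.9 CPM in blood vessel endothelial-like cells of libraries 1 to 3. In lymphatic endothelial-like cells of the same libraries it had 3, 0 and 0 UMIs (5.83, 0 and 0 CPM), and 28 UMIs or 86.84 CPM in library 4. The blood vessel level was 147-fold higher in library 1 (counting interval 49.7 to 720), at least 25.7-fold higher in library 2 and at least 8.25-fold higher in library 3. The 3 blood vessel values were all above the 4 lymphatic ones, and each lay above the free RNA level of its own library, while the lymphatic value of library 4 lay below it.

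PSMB8 was 515.1, 525.5 and 336.1 CPM in blood vessel and 73.85, 76.20 and 14.26 in lymphatic endothelial-like cells of libraries 1 to 3, and 108.6 in the lymphatic cells of library 4. PSMB9 was 477.4, 511.9 and 479.0 CPM against 21.38, 68.18 and 28.52, and 52.73 in library 4. All 3 genes were called lower in lymphatic cells, where 5.36% of 4699 genes were called lower and 4.23% higher. TAP1, at 46.07, 161.5 and 138.6 CPM against 7.77, 20.05 and 71.30, missed the call through library 3, whose lymphatic group has 11 cells (log2 ratio -0.95). Without that library it was called (median -2.69).

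After thinning, 51.22, 32.61 and 35.71% of blood vessel endothelial-like cells of libraries 1 to 3 had a CD74 UMI, against 4.05, 0 and 0% of lymphatic ones. A count of 0 allows little here, since these lymphatic groups have 22 and 11 cells in libraries 2 and 3. In the blood vessel cells, of the 12 pan-immune markers, CD53, RAC2, CD37 and ITGB2 had 0 UMIs, PTPRC, IL2RG and CYTIP 1 each and LCP1 2, whereas CORO1A had 39, LAPTM5 35, FCER1G 14 and TYROBP 6. Their part in the result was not tested.

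Over all libraries, the 4 blood vessel sub-clusters ran from 59.02 to 1047 CPM in CD74, from 304.8 to 836.1 in PSMB8 and from 327.2 to 659.1 in PSMB9. The sub-cluster led by GJA5, a gap junction gene, had 1142 CPM in library 1, and the one with APLNR among its leading genes had 683.9 in library 2. The APLNR sub-cluster, which sets the upper end of the CD74 range, is itself led by LOC106503915 and LOC102189356. These are the genes most like CD74 and were not left out of the clustering, so its CD74 level is not independent of how cells were grouped. With such genes left out, a sub-cluster of 48 cells still had APLNR and CD74 among its leading genes. The sub-cluster led by CA4 had 63.6 CPM in library 1, where its PSMB8 was 858.7 CPM. The sub-cluster with SPARCL1 and CD36 among its leading genes had 51.14 CPM in library 2 and 157.1 in library 3. CIITA, the transactivator of class II genes, had 4 UMIs in all endothelial-like cells and a median of 31.95 CPM in macrophage-like and 43.29 in dendritic-like cells.

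In blood vessel endothelial-like cells thinned to 3000 UMIs, PSMB8 and PSMB9 were found together in 21, 26 and 16 cells of libraries 1 to 3. The product of their separate shares gives 19.1, 26.6 and 14.8 cells. Over all endothelial-like cells the counts were 22, 27, 16 and 3 against products of 11.3, 20.7, 11.2 and 2.04. The excess of the whole class was thus not seen to the same degree inside the blood vessel cells.

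Ductal-like cells, the lining of the ducts, had more of the immunoproteasome subunits than acinar-like cells, which make the digestive enzymes. PSMB8 was 212.0, 77.91, 93.12 and 170.9 CPM in ductal-like cells of libraries 1 to 4 and 1.27, 4.31, 2.93 and 3.05 in acinar-like cells, with log2 ratios of 6.55, 3.89, 4.58 and 5.41. PSMB9 was 197.0, 44.52, 44.63 and 108.2 CPM against 1.02, 1.33, 0.84 and 0, with ratios of 6.62, 4.29, 4.64 and 6.77. In library 4, where acinar-like cells had 0 UMIs, the PSMB9 difference was at least 35.5-fold. Neither pair of ranges overlaps. The ductal-like class was not uniform. In library 1 its sub-cluster with FCGBP among its leading genes (24 cells) had PSMB8 at 280.0 and PSMB9 at 276.8 CPM. The one with CLDN10 (25 cells) had 72.03 and 32.74, still above acinar-like cells. In ductal-like against acinar-like cells, however, 64.7% of 5236 genes were called higher and 1.45% lower, and the median gene had a ratio of 2.15. The 15 acinar enzyme and secretory markers summed to 151198 to 372745 CPM in acinar-like and 1179 to 16821 in ductal-like cells.

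After centring on that median, both genes were still called higher, with medians of 2.91 and 3.48, while 8.31% of genes were higher and 9.64% lower. The share of higher calls moved from 97.8 to 46.3%. With at least 50 UMIs required in each library neither gene was measured in all 4. All 16 measured genes of the standard proteasome core were called before centring and 0 after it. TAP1, at 8.47 to 40.69 CPM in ductal-like and 0.76 to 1.31 in acinar-like cells, and CTSH were not measured.

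CD74 was not called in ductal-like cells. It was 8.57, 124.7, 3.85 and 56.96 CPM, and the 2 high values came from few cells. A single cell held 78 of 112 UMIs in library 2 (69.6%) and another held 80% of the 10 UMIs in library 4. Ductal-like cells carried 113.5 to 210.7 CPM of the 12 pan-immune markers. LCP1 alone gave 29.98, 142.5, 144.7 and 113.9 CPM of this in libraries 1 to 4 (350 UMIs), and the other 11 had 2 to 15 UMIs each, with PTPRC at 9. Their part in the ductal values was not tested.

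CTSH had its own distribution. It was 103.2, 86.70, 64.75 and 84.36 CPM in macrophage-like cells of libraries 1 to 4, and 99.69 and 86.31 in neutrophil-like cells of libraries 1 and 4. Stellate-like cells came next with 55.81, 28.82, 37.85 and 51.80 CPM, from 356, 202, 461 and 417 UMIs. All 4 stellate-like values lay below the lowest macrophage-like one. In dendritic-like cells, highest for CD74, the CTSH level was 28.86, 10.22 and 29.51 CPM, from 6, 1 and 6 UMIs.

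Endocrine-like cells held 2, 2, 0 and 0 CTSH UMIs in the 4 libraries. In beta-like cells the count was 0 in all 4. Stellate-like cells were 332-fold higher in library 1 (counting interval 91.3 to 2753), 83.3-fold in library 2 (22.8 to 693), and at least 111-fold and at least 203-fold in libraries 3 and 4. After thinning, 14.98, 7.13, 10.97 and 14.99% of stellate-like cells had a UMI (unthinned 24.69, 17.98, 22.78 and 33.40%) and 0% of endocrine-like cells did, at median depths of 4893 to 8070 and 8136 to 17543 UMIs. Free RNA held CTSH at 2.30 to 5.85 CPM.

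CTSH and PSMB8 were the genes called higher in stellate-like against endocrine-like cells, where 14.2% of 13151 genes were called higher and 12.4% lower. The CTSH ratios were 5.60, 4.47, 5.28 and 5.72. PSMB8 was 40.76, 40.37, 39.98 and 28.69 CPM in stellate-like and 4.96, 14.35, 8.20 and 13.03 in endocrine-like cells, with ratios of 2.81, 1.43, 2.15 and 1.08. That call was lost when the ratios were centred (median 1.85), with a pseudocount of 10 CPM (1.25) or with mixed sub-clusters kept (1.71).

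Among endocrine-like cells, CD74 differed between alpha-like and beta-like cells. It was 33.26, 53.27 and 78.07 CPM in alpha-like, glucagon-producing cells of libraries 2, 3 and 4, and 4.52, 5.27 and 7.46 in beta-like, insulin-producing cells, which had 4.13 in library 1. The log2 ratios were 2.63, 3.11 and 3.23. This pair was compared after its levels were seen, and 2.98% of 10620 genes were called higher and 3.15% lower. In the planned comparison, beta-like against all other endocrine-like cells, CD74 was called lower, with ratios of -2.08, -2.36, -2.84 and -1.36, where 2.68% of 11511 genes were lower and 1.36% higher. In library 3, alpha-like and delta-like cells held 56 and 17 of the 227 CD74 UMIs of those other cells. The rest lay in endocrine-like cells of neither name, so a raised level is not shown to be particular to alpha-like cells.

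The alpha-like counts were thin but spread over cells. A UMI was present in 22 of 79, 42 of 113 and 7 of 10 cells, and no cell held more than 4. After thinning the shares were 12.66, 14.16 and 40% in alpha-like and 1.04 to 2.30% in beta-like cells, at median depths of 7988 to 11885 and 7235 to 18033 UMIs. The alpha-like level was below the free RNA level of its library in libraries 2 and 4 and above it in library 3. Of the 12 pan-immune markers, PTPRC, CD53, RAC2, CD37, TYROBP and FCER1G had 0 UMIs in alpha-like cells, CORO1A had 13, LCP1 5 and LAPTM5, IL2RG, ITGB2 and CYTIP 1 each. Their summed level was 4.54, 13.3 and 43.4 CPM in libraries 2, 3 and 4, and their part in the CD74 values was not tested. With 10% of free RNA subtracted or a pseudocount of 10 CPM, the call in beta-like against other endocrine-like cells was lost (medians -1.97 and -1.24). The subtraction exceeded the beta-like CD74 level in libraries 1, 2 and 4, so this alternative cannot test the difference there. Without library 4 PSMB9 was also called, lower in alpha-like cells (median -1.19). With at least 50 UMIs required in each library, CD74 was not measured in all libraries of the alpha-like comparison. Delta-like cells, which make somatostatin, had 13.94, 4.11, 20.65 and 11.06 CPM.

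The spread between libraries was examined in stellate-like, endocrine-like, acinar-like and immune-like cells, and there CD74 was the 1 gene of the 5 with a spread of at least 4-fold. In stellate-like cells it ran from 1.48 CPM in library 3 to 10.68 in library 4 (4.71-fold on CPM + 1), where 5.17% of all genes spread as far, and in acinar-like cells from 2.51 to 13.20 (4.05-fold), where 27.1% did. Free RNA held CD74 at 35.12 CPM in library 3 and 75.56 in library 2. It was at 336.6 and 338.6 CPM in libraries 1 and 4, whose counting intervals overlap. Its part in these spreads was not tested. Neither spread was called without library 3 or without library 4. With 10% of the UMIs subtracted in proportion to free RNA, no CD74 was left in either class in any library. Both spreads then vanished by construction, so that alternative cannot test them. In endocrine-like cells, where 4.16% of genes spread as far, and immune-like cells, where 28.4% did, none of the 5 was called. In endocrine-like cells CD74 was highest in library 3, at 28.03 CPM, and lowest in library 4, at 9.20. CD74 and PSMB8 were called there after that subtraction, which removed all endocrine-like CD74 in libraries 1 and 4. Endothelial-like and ductal-like cells were not among the classes examined, and their levels also ran wide. PSMB9 was 63.24 to 376.4 CPM and TAP1 19.91 to 123.3 in endothelial-like cells, of which 45 of 51 were lymphatic in library 4, and PSMB9 was 44.52 to 197.0 and TAP1 8.47 to 40.69 in ductal-like cells. The library numbers carry no age, so these spreads are not readings of age.

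The lists of related genes place the 5 in their pathways. In lymphatic against blood vessel endothelial-like cells, 4 of 5 genes of the immunoproteasome and its activator were called lower (2 of 3 beside PSMB8 and PSMB9) and 0 of 15 measured genes of the standard core, where 5.36% of all genes were. The median ratio of the first list was -1.53 and that of the second -0.29, against -0.04 over all genes. Beside the 5, B2M, the light chain of class I molecules, was lower (median -2.25). CTSC was at least 8.62-fold and at least 10.6-fold lower in libraries 1 and 2, where lymphatic cells had 0 UMIs. IFIT3 (-1.97) and IRF1 (-1.75), a transcription factor of interferon responses, were called too, each on 1 lymphatic UMI in library 3, where the counting intervals of 0.628 to 174 and 0.523 to 151 include no difference.

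In endothelial-like against stellate-like cells, 3 of 5 genes of the immunoproteasome list, 4 of 9 class I loading genes and 0 of 16 core genes were called higher, against 8.08% of all genes. Beside the 5 themselves these counts are 1 of 3 and 3 of 8. TAP2, the partner of TAP1, had a median of 2.68, and CD40, a co-stimulatory receptor, 4.84. For CD40, stellate-like cells held 2 UMIs in library 1 and 2 in library 2. The differences there were 93.1-fold (counting interval 22.9 to 817) and 183-fold (47.2 to 1570). CD44, which pairs with CD74 in the receptor for the cytokine MIF, was lower. It had 0 UMIs in endothelial-like cells of libraries 1 to 3 and 1 in library 4, so that it was at least 61.1-fold, at least 30.2-fold and at least 11.5-fold lower and then 40.8-fold lower (counting interval 7.30 to 1613). In ductal-like against acinar-like cells, 6 of 6 measured interferon response genes were called higher, where 64.7% of all genes were, and 4 of 6 after centring, where 8.31% were. IRF1 and the adhesion molecule gene ICAM1 were among the genes called, and in library 4, with 0 acinar-like UMIs, they were at least 65.4-fold and at least 35.5-fold higher.

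In macrophage-like against T/NK-like cells, 5 of 8 class II loading genes, 8 of 10 cathepsins and 4 of 4 co-stimulation genes were called higher, against 19.8% of all genes. Beside CD74 and CTSH, the counts of the first pair of lists are 4 of 7 and 7 of 9. After centring, 6 of 10 cathepsins were. The proteasome lists had 0 calls in both directions, and after centring 1 lower call each. CXCL10, a chemokine, and CD40 had 0 UMIs in T/NK-like cells, so macrophage-like cells were at least 6.50-fold and at least 12.1-fold higher in CXCL10 and at least 3.89-fold and at least 12.0-fold in CD40 in libraries 1 and 4. CTSW, a cathepsin of cytotoxic lymphocytes, was lower (623-fold in library 1, counting interval 212 to 3034).

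In macrophage-like against neutrophil-like cells, 4 of 7 class II loading genes were called higher (3 of 6 beside CD74), against 11.8% of all genes, and 3 after centring. The calls beside CD74 were LGMN, CIITA and RFX5, which rest on few neutrophil-like UMIs in library 1. LGMN was 5.29-fold higher there (counting interval 1.78 to 25.9). RFX5 had 13 UMIs against 0, and its bound of 0.424-fold does not exclude equal levels. CTSK was at least 10.3-fold higher in library 1 and 126-fold in library 4 (counting interval 42.7 to 617). CXCL9, CD40 and CIITA were called too, but in library 1 the 11 neutrophil-like cells had 0 UMIs of each, which bounds the differences at only 1.27-fold, 1.70-fold and 1.21-fold.

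In dendritic-like against macrophage-like cells, 5 of 7 cathepsins were lower, against 11.5% of all genes, among them CTSB (-4.49), CTSK (-4.66) and CTSD (-3.70), of which the latter pair rest on 1 to 3 dendritic-like UMIs in libraries 1 and 2. IRF8, a transcription factor of dendritic cells, was higher (3.46). In stellate-like against endocrine-like cells, 5 of 12 cathepsins were higher (4 of 11 beside CTSH), against 14.2% of all genes, among them CTSK (5.73), CTSS (3.64) and CTSC (3.24), the first being known as a collagen-degrading protease.

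Across all sums of a class in a library, PSMB8 and PSMB9 were most like each other (Pearson r = 0.956 of log2(CPM + 1), a description over points that share libraries and depth). Their next genes included TAP1 (0.913 with each) and B2M (0.910 and 0.941). PSMB8 also had CSK at 0.919, and PSMB9 had GRK2 at 0.913. TAP1 had PARP14 (0.887) and SRGN (0.883) after PSMB8 and PSMB9. CTSH stood with SLC15A3 (0.912), EMILIN2 (0.879), ZEB2 (0.874), PLAU (0.851) and ICOSLG (0.842).

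The 5 genes most like CD74 have no gene name in the files, with r from 0.940 to 0.958. One of them, LOC102188267, is near PSMB9 in the RefSeq gene order of assembly ARS1.2. In that order PSMB9, TAP1 and PSMB8 follow each other and TAP2 stands behind them after 1 further gene. TAP2 had r = 0.907 with PSMB9. CD74 had r = 0.792 with PSMB8 and 0.584 with CTSH, and lies elsewhere in the genome.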

How the data were processed

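The authors deposited 1 matrix of raw UMI counts for all 4 libraries and all barcodes, with Cell Ranger 5.0.1 as its writer, per the file headers. Per the submitters' processing notes, bcl2fastq 5.01, Cell Ranger 3.1.0 and Seurat 3.1.1 were used. Genome build, annotation and depth equalisation: not given in the sources used here. Of 27137 gene IDs, 27103 matched RefSeq (ARS1.2), used for names and gene order only.

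Library totals were 43297855, 82817057, 65937591 and 55223412 UMIs. Barcodes above 1/10 of the 99th percentile of the 8000 top barcodes and with at least 500 genes were called cells. Scrublet in scanpy 1.11.5 marked 48, 3, 109 and 3 doublets in libraries 1 to 4; in libraries 2 and 4 that is under 0.5% of cells, so it did not work there, and removal of the 5% highest scores is an alternative. Cells were clustered (2000 variable genes, 30 components, 15 neighbours, Leiden resolution 1, igraph 0.11.9) jointly without batch correction. Classes were named from 25 marker sets and need at least 3 markers. The naming thresholds, and the rule that set mixed sub-clusters aside, were chosen after seeing the data. Members and lists were chosen with earlier results of these data known. The age comparison was not run.

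UMIs were summed per class and library; CPM ratios use a pseudocount of 1. Calls need 2-fold in every library with at least 10 cells of each class (at least 2 libraries). Intervals are exact, at 95%, and cover counting error only. Likeness was computed among genes with at least 50 UMIs, naming the first 5. Up to 6 called list genes with the largest median are named per comparison, and others only where stated as part of a pair or pathway. Scripts were tested on simulated data. Alternatives changed the pseudocount, UMI minimum, centring, cell threshold, doublets, free RNA, resolution and each library in turn, and, added after seeing the data, the mixed sub-clusters and the genes used for clustering.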

Additional observations from a re-analysis of the deposited data

Results flagged for a closer look

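PSMB8 in stellate-like cells was 28.69 CPM in library 4, apart from the other 3 libraries at 39.98 to 40.76 CPM. The gap took 0.945 of the whole range, above Dixon's 95% critical value for 4 values. It was the 1 such case among 35 sets of 4 library values, and chance gives about 1 in 20.

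CD74 was 379.4 CPM in the 421 endocrine cells of library 4 that were set aside because their sub-clusters carried markers of another class. The 624 endocrine-like cells kept in that library had 9.20 CPM. The cells set aside enter no comparison, and the free RNA level in the same library was 338.6 CPM.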

How the results depend on the processing

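Of 498 values of single genes under an alternative, 478 kept their direction and call, 12 lost the call, 8 gained one and 0 reversed. Of 175 counts of genes called among the 5, 27 moved. With cells of at least 1000 UMIs, or without the genes most like the 5 in clustering, macrophage-like against neutrophil-like cells had 1 call in place of 2, and 0 with 5% of doublet scores removed. With a pseudocount of 10 CPM, stellate-like against endocrine-like cells had 1 in place of 2, and beta-like against other endocrine-like cells and the stellate-like and acinar-like library spreads had 0 in place of 1. Centring gave stellate-like against endocrine-like cells 1. At least 50 UMIs gave 0 in place of 2 for ductal-like against acinar-like cells and 0 in place of 1 for alpha-like against beta-like cells. Subtracting 10% free RNA gave 0 in place of 1 for beta-like against other endocrine-like cells and both library spreads, and 2 in place of 0 for the endocrine-like spread, which also had 2 with mixed sub-clusters kept. Where the subtraction removed all CD74 of a class, as in both library spreads, such a count was fixed in advance. Resolution 2 gave 0 for both library spreads, and 5% of doublet scores removed gave 0 for the stellate-like one. Dendritic-like against macrophage-like cells had 2 in place of 1 with 5% of doublet scores removed and 0 without the genes most like the 5.

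Leaving out 1 library at a time gave 1 to 2 calls for dendritic-like against macrophage-like and for alpha-like against beta-like cells (2 without library 4, where PSMB9 was lower), and 0 to 1 for the stellate-like and acinar-like spreads, both 0 without library 3 or 4. Dendritic-like against macrophage-like cells had 2 without library 2 or 4. No value came for macrophage-like against neutrophil-like cells at resolution 2, or for the 3 comparisons that rest on libraries 1 and 4 when either was left out, since fewer than 2 libraries remained. Calls over all genes differed by more than 1.5 times in 68 of 246 counts. For higher and lower calls they ran from 236 to 873 (841 as reported) and 74 to 346 (262) in macrophage-like against neutrophil-like, 602 to 1539 (1497) and 99 to 621 (422) in macrophage-like against T/NK-like, 16 to 155 (83) and 85 to 556 (426) in B/plasma-like against T/NK-like, and 500 to 1130 (920) and 450 to 1021 (830) in endothelial-like against stellate-like cells. They ran from 38 to 433 (199) and 67 to 481 (252) in lymphatic against blood vessel, 435 to 5593 (3390) and 35 to 505 (76) in ductal-like against acinar-like, and 1022 to 2346 (1864) and 577 to 1943 (1637) in stellate-like against endocrine-like cells. They ran from 36 to 241 (157) and 97 to 416 (309) in beta-like against other endocrine-like, 13 to 165 (53) and 73 to 1278 (311) in dendritic-like against macrophage-like, and 133 to 626 (316) and 117 to 639 (334) in alpha-like against beta-like cells. Of 25 shares of cells with a UMI, 21 moved when cells were not thinned. No paired analysis was possible because no library carries a replicate number of the labels; every ratio already sets classes side by side within 1 library. Small groups limit precision, among them 10 alpha-like and 11 ductal-like cells in library 4, 11 neutrophil-like cells in library 1 and 11 lymphatic endothelial-like cells in library 3.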

Other observations

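The 63 mesothelial-like cells of library 4, the lining of the organ's surface, had PSMB8 at 151.8 CPM, PSMB9 at 36.52, TAP1 at 23.96 and CD74 at 43.36 CPM, with 133, 32, 21 and 38 UMIs. Free RNA in that library held CD74 at 338.6 and PSMB8 at 65.42 CPM. Their PSMB8 share over PSMB8 and PSMB5 was 61.3% and their PSMB10 share over PSMB10 and PSMB7 was 71.6%. They exist in 1 library, so no spread can be given.

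An immune sub-cluster with CENPF, TOP2A and MKI67, genes of dividing cells, among its leading genes was left without a cell type name. CD74 was 6117 CPM in its 14 cells of library 1, 6342 in 23 cells of library 3 and 11010 in 12 cells of library 4, and PSMB8 was 1240, 895.5 and 844.1 CPM.

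MIF, a cytokine that binds CD74, had its highest median in ductal-like cells, at 1663 CPM (1219 to 4392 over 4 libraries), against 344.7 CPM in macrophage-like and 336.7 in dendritic-like cells. CD44, the co-receptor, was highest by median in dendritic-like cells, at 357.8 CPM, and 121.8 CPM in stellate-like cells. IFNG, the cytokine that induces the genes of both routes, had 6 UMIs in T/NK-like cells, 1 in macrophage-like cells and 0 in endothelial-like, ductal-like, stellate-like, acinar-like and endocrine-like cells. Its receptor gene IFNGR1 was 151.9 CPM in neutrophil-like, 92.10 in endothelial-like and 2.45 in acinar-like cells, as medians over libraries.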
